A study of Mus musculus with 6 samples.

Results

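The matrix metalloproteinases (Mmp genes), the ADAMTS proteases (Adamts genes), the ADAMTS-like proteins (Adamtsl genes) and the tissue inhibitors of metalloproteinases (Timp genes) were followed in primary adipose-derived stromal cells (ADSCs), fibroblast-like cells isolated from mouse fat. Members were all rows of the deposited table whose mouse symbol is Mmp, Adamts or Adamtsl followed by a number, or Timp1 to Timp4, which gave 51 of 22186 genes: 23 Mmp, 19 Adamts, 5 Adamtsl and 4 Timp genes. ADSCs of wild-type genotype were sequenced in 2 groups, one kept for 48 h with regulatory T cells (Treg co-culture, 3 libraries) and one kept without them (control, 3 libraries). The labels name no age, sex or strain of mouse, and batches 1 to 3 in them each hold 1 Treg co-culture and 1 control library. No group was kept with another cell type, so what Treg do in particular and what any added cells would do cannot be told apart. Whether animals or cultures differ between libraries is not in the labels, and the spread behind the p-values may be technical.

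Metalloproteinases use a zinc ion to cut proteins outside the cell. Mmp enzymes are made as inactive precursors, are switched on by removal of a propeptide, and cut collagens, gelatin, basement membrane proteins and other proteases, while ADAMTS enzymes cut large proteoglycans such as aggrecan and versican or trim procollagen. ADAMTS-like proteins resemble the non-catalytic part of ADAMTS enzymes and have no protease domain. TIMP proteins bind the active site of these enzymes and block it, and stromal cells of fat are known as a source of both proteases and inhibitors.

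Values were deposited as TPM, a share of all transcripts corrected for gene length, with 1000000 in total per library, so levels can be set side by side between genes and sequencing depth is unknown. In these 6 libraries between 6566 and 7073 genes were listed at 0. All 15 ADSC markers had a mean of at least 1 TPM, and they summed to 9216 to 9569 TPM in Treg co-culture libraries and 10376 to 10832 TPM in controls, mostly from Col1a1. Of the 15, 4 were higher in every Treg co-culture library than in any control and 10 were lower. Of the T cell and Treg markers, 16 of which were measured, 9 were at 0 in all libraries, including Cd3e, Cd4, Il2ra and Ctla4. Of the 16, 1 was higher in every Treg co-culture library than in any control and 0 were lower. The 1 was Ptprc, the CD45 gene of all leukocytes. It had 0.443, 0.528 and 0.633 TPM in Treg co-culture 1 to 3, against 0.326, 0.304 and 0.414 TPM in controls 1 to 3. Treg co-culture 1 stood apart in transcripts of adult heart and liver, with albumin (Alb) at 64.9 TPM against at most 0.210 TPM elsewhere, and all 22 calls given below held without that library. Skeletal muscle markers (10 of 12 at a mean of at least 1 TPM) summed to 2526 to 2587 TPM in Treg co-culture libraries, against 919 to 972 TPM in controls. Of the 12, 11 were higher in every Treg co-culture library than in any control. Adipocyte markers (6 of 8) summed to 408 to 425 TPM in Treg co-culture libraries, against 647 to 666 TPM in controls. Of the 8, 4 were lower in every Treg co-culture library than in any control and 0 were higher. Most of the adipocyte sum was Lpl (287 to 301 TPM in Treg co-culture libraries, 493 to 512 TPM in controls). Pparg overlapped, with 17.2 to 19.6 TPM in Treg co-culture libraries and 13.9 to 18.7 TPM in controls. The 9 pericyte and smooth muscle markers did not move one way: 3 were higher in every Treg co-culture library than in any control, and 4 were lower. Acta2, the smooth muscle actin gene, held most of their sum of 4419 to 4504 TPM in Treg co-culture libraries and 3791 to 3885 TPM in controls. In bulk RNA, fewer cells of a type and less RNA per cell cannot be told apart, and the part of these shifts in the results below was not tested.

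Most abundant members were lower after Treg co-culture, with Timp1 as the exception among the inhibitors. A gene was tested where its mean over the 6 libraries was at least 1 TPM, which 35 of the 51 members met, and it was called at an adjusted p (Benjamini-Hochberg over all genes tested) under 0.05 in limma on log2(TPM + 1). Of the 35 members tested 17 were called lower and 5 higher (Timp1, Mmp15, Adamts6, Adamts12 and Adamts14), and 13 were not called. That is 62.9% of the members tested, where 37.8% of all 12405 genes tested were called, 19.8% higher and 18.0% lower. The median log2 fold change was -0.23 over the members tested and 0.00 over all genes tested. Adamts15 was the 1 member called with a change of at least 1 on that scale, which 1.54% of all genes tested reached. Called members fell by 0.21 (Mmp11) to 1.21 (Adamts15) or rose by 0.34 (Adamts12) to 0.91 (Adamts6) on the log2 scale, which understates the change of low genes. In what follows, the first number in brackets after the TPM values of a gene is this log2 fold change (Treg co-culture over control), and ± gives the SD of 3 libraries.

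**Figure D1:**
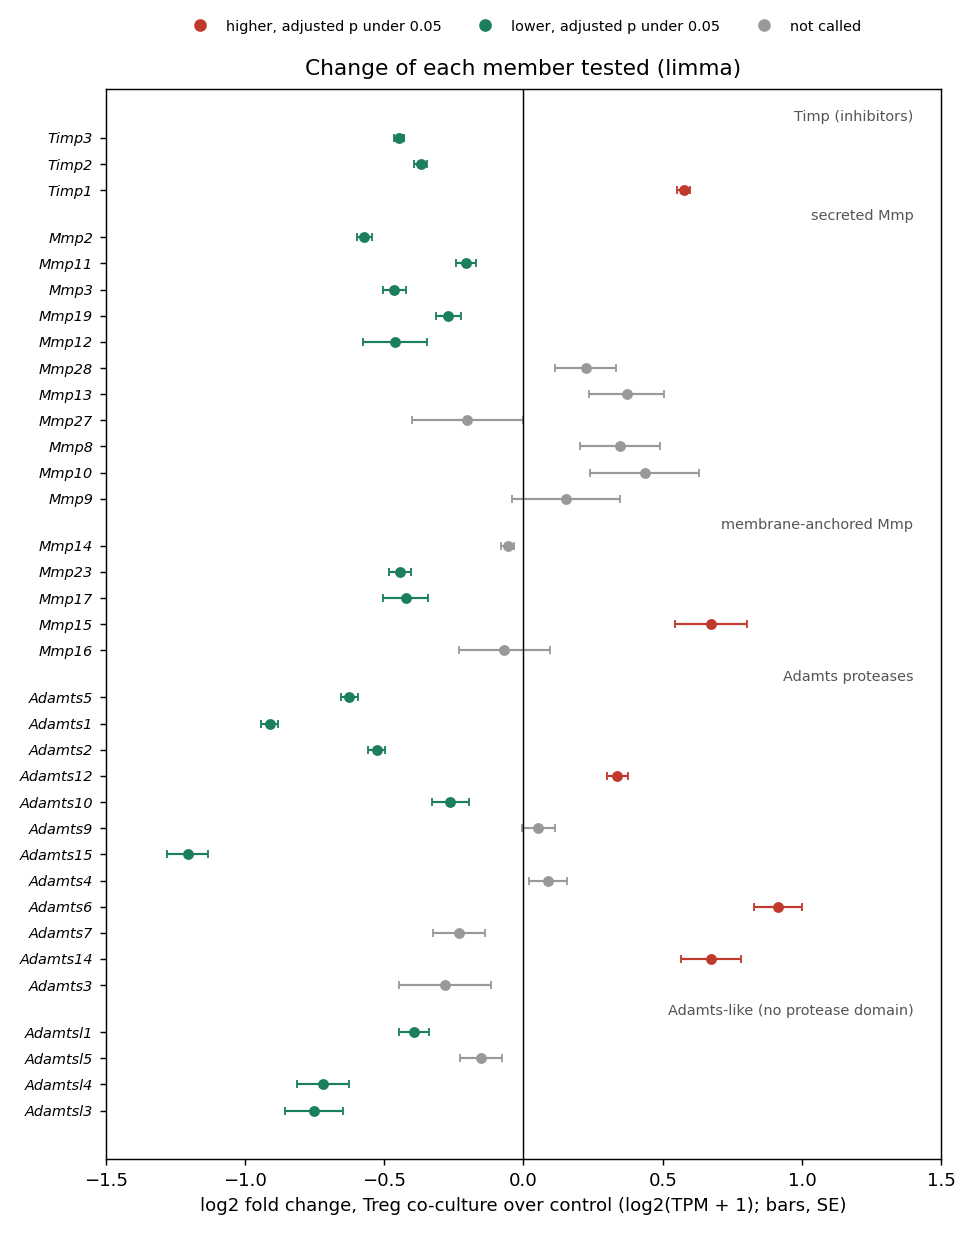
Log2 fold change of the 35 members tested, Treg co-culture over control, on the log2(TPM + 1) scale; points are limma estimates, bars are SE and colours give the call at an adjusted p of 0.05. Of the Timp genes Timp1 lies right of 0 at 0.58 and Timp2 and Timp3 lie left of 0, and Adamts15 is farthest left at -1.21.

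Lower calls became more frequent with abundance, among the members and among all genes tested. Of the 10 members with a mean of at least 100 TPM, 8 were lower, Timp1 was higher and Mmp14 was not called, while 27.1% of all 1654 genes at that level were lower and 33.1% higher. Of the 12 members from 10 to 100 TPM 7 were lower and 2 higher, while 18.5% of all genes at that level were lower and 20.3% higher. Of the 13 members from 1 to 10 TPM 2 were lower and 2 higher, or 15.4% each way, near the 12.7% lower and 12.3% higher of all genes at that level. Groups did not overlap for all 22 called members and for 28 of the 35 tested (9 with Treg co-culture higher, 19 with it lower), against 49.3% of all genes tested (25.3% higher, 24.0% lower). The 9 include Mmp10, which passed the filter only through its Treg co-culture values. The plot of levels shows every library of the members tested.

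**Figure D2:**
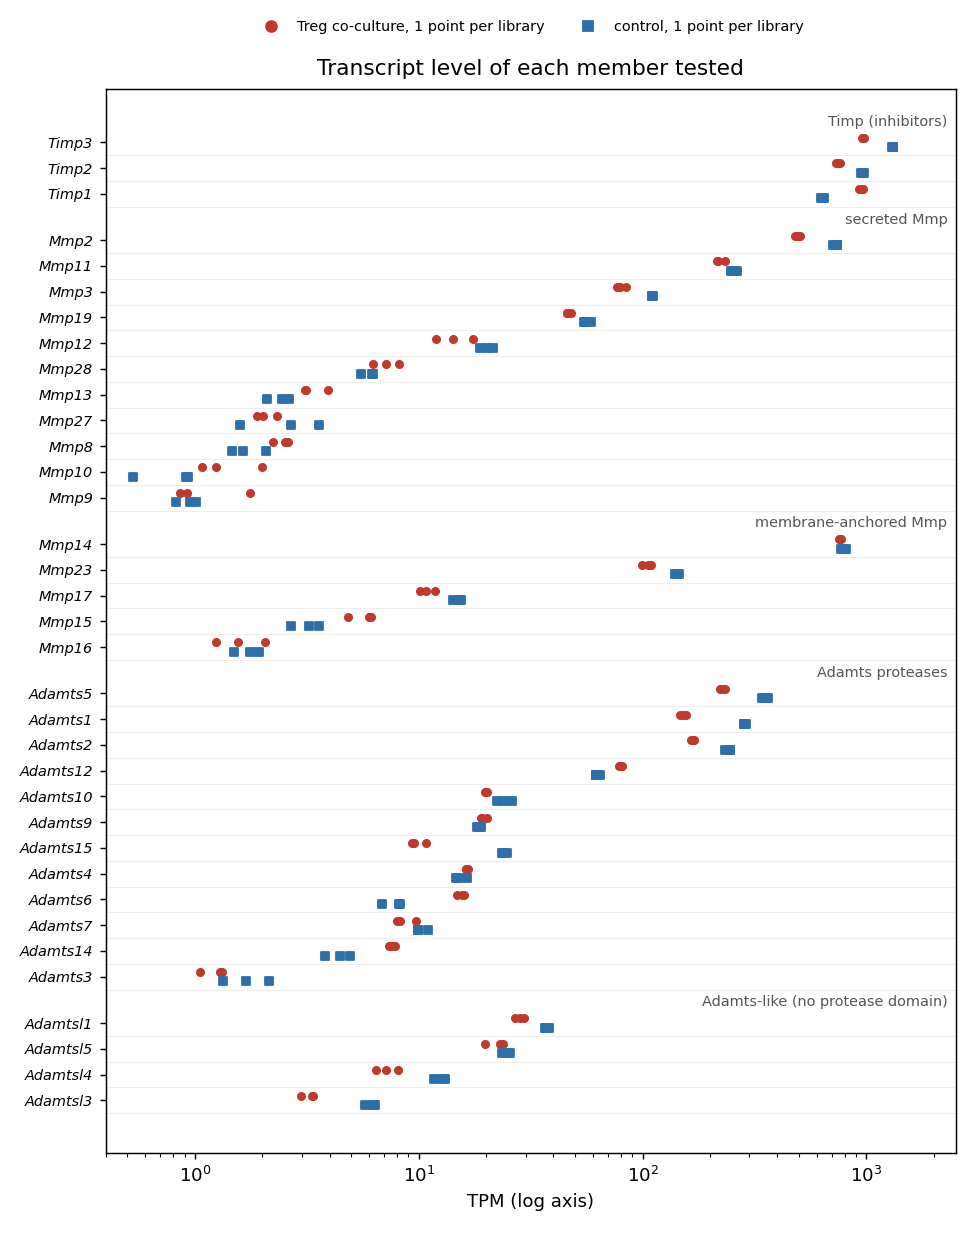
TPM (log axis) of the 35 members tested, 1 point per library, with Treg co-culture as red circles above control as blue squares in each row, sorted by mean level within each class. Timp1 is the Timp gene whose red points lie right of the blue ones, and the points of Mmp14 overlap.

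Timp1 rose while Timp2 and Timp3 fell. Timp1, the secreted inhibitor of most soluble Mmp enzymes and a poor inhibitor of Mmp14, had 923, 969 and 952 TPM in Treg co-culture 1 to 3, against 646, 636 and 625 TPM in controls 1 to 3. Every Treg co-culture library lay far above every control, and the log2 fold change was 0.58 (SE 0.02, adjusted p = 5.29e-08). Timp3, which binds to the matrix and also blocks ADAMTS enzymes and the sheddase Adam17, had 952, 969 and 970 TPM in Treg co-culture libraries, against 1321, 1303 and 1319 TPM in controls. It fell by 0.45 on the log2 scale (SE 0.02, adjusted p = 4.28e-08), without overlap between the groups. Timp2, which besides blocking Mmp enzymes helps Mmp14 to activate the Mmp2 precursor at the cell surface, had 731, 762 and 744 TPM in Treg co-culture libraries and 941, 967 and 979 TPM in controls. It fell by 0.37 (SE 0.02, adjusted p = 1.25e-06), again without overlap. Timp4, the inhibitor known best from heart and brain, was at most 0.356 TPM in any library and was not tested.

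Timp1 made up 35.7% ± 0.228 of the summed Timp TPM in Treg co-culture libraries and 21.8% ± 0.430 in controls (mean ± SD, n = 3 each). Timp3 was the most abundant Timp transcript in every control, at rank 105 of all genes by group mean, and the ranges of Timp3 and Timp1 overlapped in Treg co-culture libraries (952 to 970 and 923 to 969 TPM). The Timp1 to Timp3 ratio, which does not depend on how a library is scaled, was 0.970, 0.999 and 0.981 in Treg co-culture 1 to 3 and 0.489, 0.488 and 0.474 in controls 1 to 3. In the plot of the inhibitors the summed Timp level moved less than its members, at 2658 ± 47.7 TPM in Treg co-culture libraries and 2913 ± 9.32 TPM in controls.

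**Figure D3:**
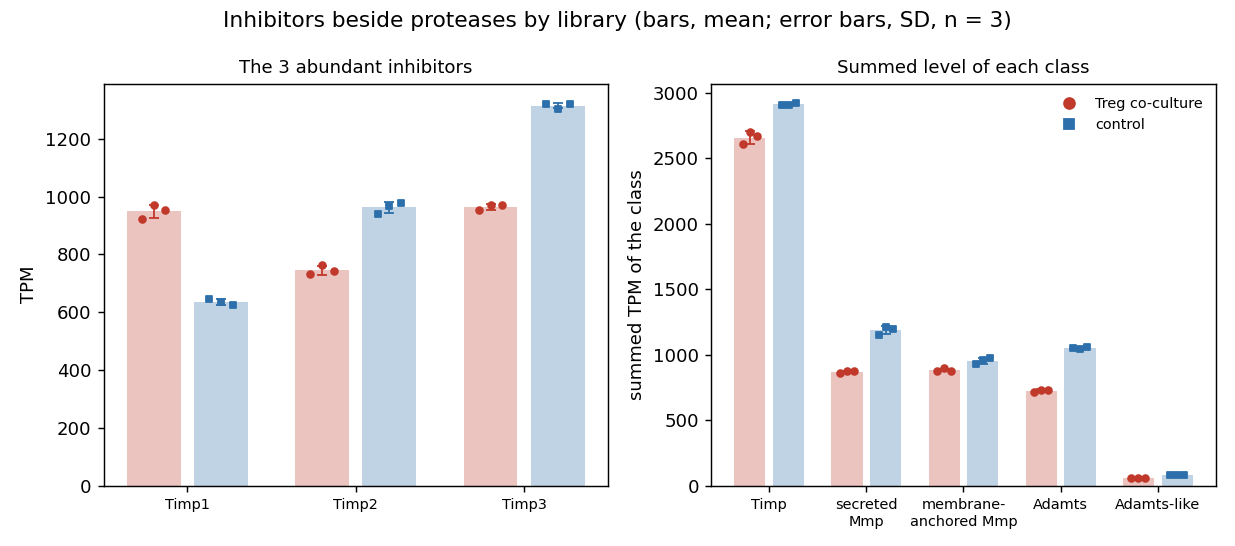
Left, TPM of Timp1, Timp2 and Timp3; right, summed TPM of each class; bars are means, error bars SD and points the 3 libraries of each group, with Treg co-culture left of control. Timp1 averages 948 TPM in Treg co-culture libraries against 636 TPM in controls, while the class sums of all 5 classes are lower in Treg co-culture libraries.

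The sequence upstream of Timp1 is shown because Timp1 is the inhibitor that rose. Sequences are from RefSeq (build GRCm38.p6) and are printed 5′ to 3′ up to the base before the annotated RNA start, and 36 of the 51 members had an entry, Timp1, Timp2 and Timp3 among them. The 250 bases before each start were searched on both strands for the core of an ETS factor site, AGGAAG, which 29.5% of all 32851 entries held. By gene the share was 32.3%, and 13 of the 36 members with an entry held it. Timp1 held it at 2 places, 175 to 170 and 99 to 94 bases upstream, printed in capitals. Timp3 held it once and Timp2 did not hold these letters in this window. A match is a description of the letters, not a measured site.
Timp1 (chrX:20869966-20870165, plus strand): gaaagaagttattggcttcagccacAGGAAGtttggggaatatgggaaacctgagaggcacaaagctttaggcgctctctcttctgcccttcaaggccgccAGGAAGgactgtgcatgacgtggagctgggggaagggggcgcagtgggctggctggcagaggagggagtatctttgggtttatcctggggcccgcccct

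Among the secreted Mmp genes 5 of 11 tested were lower and none was called higher in limma. At an unadjusted p under 0.05 the count was 3 of 11 (Mmp13, Mmp8 and Mmp10, the last of which passed the filter only through its Treg co-culture values), near the 24.0% of all genes tested that were higher at that p. Mmp2, gelatinase A, which cuts denatured collagen and basement membrane collagen, was the most abundant and had 488, 480 and 503 TPM in Treg co-culture 1 to 3, against 706, 741 and 739 TPM in controls 1 to 3. All Treg co-culture libraries were lower, by 0.57 on the log2 scale (SE 0.03, adjusted p = 1.48e-07). Mmp11, stromelysin-3, which is activated inside the cell by furin, had 218, 233 and 215 TPM in Treg co-culture libraries, against 249, 264 and 256 TPM in controls. Its fall was the smallest of the called members (-0.21, SE 0.04, adjusted p = 0.00133), though the groups did not overlap. Mmp3, stromelysin-1, which activates other Mmp precursors, had 79.0, 76.8 and 84.3 TPM in Treg co-culture libraries, against 110, 111 and 111 TPM in controls (-0.46, SE 0.04, adjusted p = 1.19e-05). Its SD was 0.518 TPM in controls, small beside the difference of the means (80.0 TPM in Treg co-culture libraries, 111 TPM in controls).

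Mmp19, a secreted protease active on basement membrane proteins, had 45.9, 47.9 and 45.9 TPM in Treg co-culture libraries, against 54.6, 59.0 and 55.4 TPM in controls (-0.27, SE 0.05, adjusted p = 0.00114). Mmp12, macrophage elastase, had 14.3, 17.4 and 11.9 TPM in Treg co-culture libraries, against 20.3, 21.5 and 18.8 TPM in controls (-0.46, SE 0.12, adjusted p = 0.00991). Both fell without overlap, and Mmp12 varied more among the Treg co-culture libraries, relative to its mean, than any other secreted Mmp called. Macrophage markers were low but present, 8 of 11 at a mean of at least 1 TPM, with Lyz2 the most abundant, and summed to 72.0 to 84.2 TPM in Treg co-culture libraries, against 101 to 110 TPM in controls. Lyz2 held most of these sums, with 39.7 to 51.8 TPM in Treg co-culture libraries and 62.4 to 70.5 TPM in controls. Of the 11 markers, 5 were lower in every Treg co-culture library than in any control and 0 were higher. The part of macrophage transcripts in the Mmp12 result was not tested. Neutrophil markers summed to at most 1.14 TPM in any library, with S100a8, S100a9 and Ly6g at 0 in all.

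The 6 secreted Mmp genes that were not called lay below 10 TPM. The collagenases Mmp13 and Mmp8 had higher means without a call, Mmp13 with 3.13, 3.12 and 3.95 TPM in Treg co-culture libraries against 2.45, 2.11 and 2.63 TPM in controls (log2 fold change 0.37, adjusted p = 0.0533) and Mmp8 with 2.53, 2.23 and 2.62 TPM in Treg co-culture libraries against 2.08, 1.64 and 1.465 TPM in controls (0.35, adjusted p = 0.0866). Neither had overlapping groups, yet neither passed the threshold. Mmp10, stromelysin-2, had 1.24, 1.99 and 1.08 TPM in Treg co-culture libraries against 0.529, 0.929 and 0.912 TPM in controls (0.44, adjusted p = 0.108). Mmp28 (0.22), Mmp27 (-0.20) and the gelatinase Mmp9 (0.15) had overlapping groups. Mmp9 and Mmp10 averaged under 1 TPM in controls and were tested only through their Treg co-culture values. For Mmp9 these were 1.76 TPM in Treg co-culture 1 and 0.862 and 0.927 TPM in the other two.

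Of the secreted Mmp genes 10 lie side by side on chromosome 9 with no other protein-coding gene of the RefSeq table between them: Mmp13, Mmp12, Mmp1b, Mmp3, Mmp1a, Mmp10, Mmp8, Mmp27, Mmp20 and Mmp7. Of the 6 tested, Mmp3 and Mmp12 were lower and Mmp13, Mmp10, Mmp8 and Mmp27 were not called. Mmp promoters are known for an AP-1 site, where Fos and Jun factors bind, close to the start, and the letters TGANTCA (N, any base; the motif reads the same on both strands) were found in 8 of the 36 members with an entry. All 8 belong to this cluster. No match was listed for its other members, Mmp8 and Mmp27, and not every member had an entry to search. In the whole RefSeq set 7.82% of genes held them. The 100 bases before the start of the 4 tested genes that held them are shown. Their means over the 6 libraries were 95.3 TPM for Mmp3, 17.4 for Mmp12, 2.90 for Mmp13 and 1.11 for Mmp10. A match is a description of the letters, not a measured site, and any part of it in the calls was not tested. AP-1 letters are in capitals and lie 46 to 40 bases upstream in Mmp3, 63 to 57 in Mmp10, 35 to 29 in Mmp13 and 44 to 38 in Mmp12, at one of the 2 starts listed for Mmp12.
Mmp3 (chr9:7445722-7445821, plus strand): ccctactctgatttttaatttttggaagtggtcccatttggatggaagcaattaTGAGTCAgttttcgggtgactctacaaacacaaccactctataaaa
Mmp10 (chr9:7502242-7502341, plus strand): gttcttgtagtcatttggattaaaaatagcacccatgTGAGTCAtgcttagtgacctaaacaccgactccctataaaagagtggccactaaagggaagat
Mmp13 (chr9:7272414-7272513, plus strand): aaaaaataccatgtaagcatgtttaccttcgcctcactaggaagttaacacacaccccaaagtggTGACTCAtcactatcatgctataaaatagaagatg
Mmp12 (chr9:7347274-7347373, plus strand): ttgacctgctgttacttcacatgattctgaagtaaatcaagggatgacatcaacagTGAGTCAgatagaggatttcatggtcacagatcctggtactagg

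Of the membrane-anchored Mmp genes Mmp14 (MT1-MMP), the main pericellular collagenase and activator of Mmp2, was the most abundant protease of all members. It had 755, 770 and 759 TPM in Treg co-culture 1 to 3 and 767, 798 and 811 TPM in controls 1 to 3, with overlapping ranges. The log2 fold change was -0.06 (SE 0.02, adjusted p = 0.0889), and it passed the threshold with quantile normalization (-0.09, adjusted p = 0.0114) and without control 1 (-0.08, adjusted p = 0.01255). Mmp23, a short membrane-anchored protease that lacks the usual propeptide switch, had 105, 109 and 99.7 TPM in Treg co-culture libraries, against 142, 140 and 146 TPM in controls (-0.44, SE 0.04, adjusted p = 1.44e-05). Mmp17 (MT4-MMP), which is held by a lipid anchor, had 10.1, 10.8 and 11.8 TPM in Treg co-culture libraries, against 15.5, 14.2 and 15.2 TPM in controls (-0.42, SE 0.08, adjusted p = 0.00203). Both were lower in every Treg co-culture library than in any control. Mmp15 (MT2-MMP), a close relative of Mmp14, went the other way at a low level, with 6.13, 4.83 and 6.01 TPM in Treg co-culture libraries, against 3.25, 3.58 and 2.70 TPM in controls (0.67, SE 0.13, adjusted p = 0.00242). It was the 1 Mmp gene called higher. Mmp16 (MT3-MMP) had 1.25 to 2.06 TPM in Treg co-culture libraries and 1.49 to 1.94 TPM in controls and was not called (adjusted p = 0.778).

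Of the 5 proteoglycan-cutting ADAMTS enzymes tested 3 fell, among them the 2 members with the lowest log2 fold changes, Adamts15 and Adamts1. Adamts1, which cuts versican and aggrecan, had 146, 157 and 152 TPM in Treg co-culture 1 to 3, against 285, 283 and 290 TPM in controls 1 to 3. Its group means differed by a ratio of 0.530 (log2 fold change -0.91, SE 0.03, adjusted p = 1.57e-08). Adamts5, a main aggrecanase of mouse cartilage, had 223, 227 and 234 TPM in Treg co-culture libraries, against 362, 342 and 351 TPM in controls (-0.62, SE 0.03, adjusted p = 1.72e-07). Adamts15, another versican-cutting member, had 9.38, 10.7 and 9.54 TPM in Treg co-culture libraries, against 24.8, 23.6 and 23.8 TPM in controls (-1.21, SE 0.07, adjusted p = 8.73e-07). All 3 fell with no overlap. Adamts4, the other classic aggrecanase, stood at 16.4 ± 0.188 TPM in Treg co-culture libraries and 15.4 ± 0.986 TPM in controls (mean ± SD, n = 3 each; 0.09, adjusted p = 0.340). Adamts9, known for versican cutting in development, stood at 19.4 ± 0.607 TPM in Treg co-culture libraries and 18.7 ± 0.428 TPM in controls (0.05, adjusted p = 0.516). Adamts1 and Adamts5 are next to each other on chromosome 16 in the RefSeq table, as are Adamts15 and Adamts8 on chromosome 9, and Adamts8 was at most 0.408 TPM.

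The procollagen N-proteinases, which remove the amino-terminal propeptide of fibrillar procollagens, moved in opposite directions. Adamts2, the most abundant of them, had 165, 170 and 168 TPM in Treg co-culture libraries, against 234, 247 and 247 TPM in controls (-0.53, SE 0.03, adjusted p = 7.12e-07). Adamts14 had 7.58, 7.85 and 7.34 TPM in Treg co-culture libraries, against 4.45, 3.81 and 4.95 TPM in controls (0.67, SE 0.11, adjusted p = 7.52e-04). Neither overlapped between groups, and Adamts14 stayed far below Adamts2 in every library. Adamts3, which also processes the lymphatic growth factor VEGFC, had 1.05, 1.30 and 1.33 TPM in Treg co-culture libraries against 2.15, 1.69 and 1.33 TPM in controls and was not called (-0.28, adjusted p = 0.215).

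The remaining ADAMTS enzymes that were tested were mixed. Adamts6, which regulates cell adhesion and fibrillin-rich matrix, had 15.9, 14.8 and 15.6 TPM in Treg co-culture libraries, against 8.25, 6.83 and 8.13 TPM in controls. Its log2 fold change of 0.91 (SE 0.09, adjusted p = 2.38e-05) was the largest among the members tested. Adamts10, its close relative that binds fibrillin-1, had 19.7, 19.9 and 20.1 TPM in Treg co-culture libraries, against 22.3, 24.1 and 26.1 TPM in controls and fell (-0.26, SE 0.07, adjusted p = 0.0109). The pair thus differed in direction. Adamts12, which cuts cartilage oligomeric matrix protein (Comp), had 80.8, 78.4 and 80.2 TPM in Treg co-culture libraries, against 64.5, 62.2 and 62.2 TPM in controls (0.34, SE 0.04, adjusted p = 6.14e-05). Its relative Adamts7, which also cuts Comp, had 9.69, 8.23 and 7.96 TPM in Treg co-culture libraries against 9.91, 10.96 and 9.95 TPM in controls and was not called (-0.23, adjusted p = 0.0790). Without Treg co-culture 1 Adamts7 was called lower (-0.31, adjusted p = 0.0373).

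Of the 4 ADAMTS-like genes tested 3 were lower. Adamtsl1, a secreted matrix protein also named punctin, had 28.2, 29.7 and 26.9 TPM in Treg co-culture libraries, against 36.7, 38.3 and 37.2 TPM in controls (-0.39, SE 0.05, adjusted p = 2.66e-04). Adamtsl4, which binds fibrillin-1 and is tied to lens displacement in humans when mutated, had 6.45, 7.15 and 8.09 TPM in Treg co-culture libraries, against 11.8, 13.1 and 12.7 TPM in controls (-0.72, SE 0.09, adjusted p = 2.15e-04). Adamtsl3 had 2.995, 3.37 and 3.33 TPM in Treg co-culture libraries, against 6.27, 5.74 and 6.36 TPM in controls (-0.75, SE 0.11, adjusted p = 3.24e-04). The groups of these 3 genes were apart. Adamtsl5 had 23.1, 19.7 and 23.8 TPM in Treg co-culture libraries against 23.7, 25.0 and 25.5 TPM in controls, with overlap and no call (-0.15, adjusted p = 0.143). Adamtsl2, which binds fibrillin and latent TGF-beta binding protein, averaged 0.975 ± 0.249 TPM in Treg co-culture libraries and 0.970 ± 0.504 TPM in controls and was not tested.

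Under the filter lay 16 of the 51 members, at no more than 1.55 TPM in any library. Mmp1a, a mouse counterpart of interstitial collagenase, and the enamel protease Mmp20 were listed at 0 in all 6 libraries. Mmp1b, the close copy of Mmp1a, had 0.190, 0.288 and 0.268 TPM in Treg co-culture libraries, against 0.066, 0.067 and 0.072 TPM in controls. Without the filter Mmp1b was called higher (0.22, SE 0.06, adjusted p = 0.0353 in limma) and the other 13 of the 14 low members above 0 were not. How reads were divided between Mmp1a and Mmp1b was not given in the sources used here, which leaves the 2 values uncertain. Matrilysin (Mmp7), Mmp21, the von Willebrand factor protease Adamts13, Adamts18 and Adamts19 were listed at 0 in every Treg co-culture library and at no more than 0.153 TPM in controls. Adamts16, Adamts17, Mmp24 and Mmp25 were at most 0.256 TPM in any library, and Adamts20 had 0.553 to 1.31 TPM in Treg co-culture libraries and 0.796 to 1.08 TPM in controls.

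Summed over each class, transcripts of proteases and inhibitors were set beside each other as a description, with no test. Secreted Mmp genes summed to 862, 873 and 878 TPM in Treg co-culture 1 to 3, against 1154, 1212 and 1195 TPM in controls 1 to 3, a ratio of means of 0.734. Adamts genes summed to 715, 733 and 733 TPM in Treg co-culture libraries, against 1052.5, 1042 and 1060 TPM in controls (ratio 0.692), and Adamtsl genes to 61.9 ± 0.863 TPM in Treg co-culture libraries, against 81.7 ± 2.34 TPM in controls (ratio 0.757). In all 3 sums every Treg co-culture library was below every control. Membrane-anchored Mmp genes summed to 885 ± 10.1 TPM in Treg co-culture libraries and 955 ± 23.8 TPM in controls (ratio 0.926), and without Mmp14 the ratio was 0.757. The Timp sum had a ratio of 0.912, and without Timp3 it was 1.06, so the sum's direction rested on Timp3. For each TPM of Timp transcript there were 0.668, 0.655 and 0.659 TPM of Mmp transcript in Treg co-culture libraries and 0.716, 0.746 and 0.743 TPM in controls. The Adamts to Timp ratio was 0.275, 0.271 and 0.275 in Treg co-culture libraries, against 0.362, 0.358 and 0.363 in controls. Against Timp3 alone, which also blocks ADAMTS enzymes, the ratio of the Adamts sum was 0.752, 0.756 and 0.755 in Treg co-culture libraries, against 0.797, 0.799 and 0.803 in controls, a smaller difference. All 3 ratios were lower in every Treg co-culture library, and none measures enzyme activity, since Mmp and ADAMTS enzymes are controlled by activation after translation.

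Mmp14 and Timp2 form the surface complex that activates Mmp2, and their transcripts stood in other proportions after co-culture. Mmp14 transcripts were 1.03, 1.01 and 1.02 times those of Timp2 in Treg co-culture 1 to 3, against 0.815, 0.825 and 0.829 times in controls 1 to 3. Mmp2 transcripts were 0.644 ± 0.0196 times those of Mmp14 in Treg co-culture libraries and 0.920 ± 0.00846 times in controls (mean ± SD, n = 3 each). Mmp2 transcripts were 0.658 ± 0.0248 times those of Timp2 in Treg co-culture libraries and 0.757 ± 0.00788 times in controls. The groups did not overlap in any of these ratios. With Mmp14 little changed, the ratios restate the falls of Timp2 and Mmp2 given above and are not separate results.

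Around the family, 4 lists of related genes were examined. Beside all 4 lists stands the share over all 12405 genes tested, 19.8% called higher and 18.0% called lower. Among 24 tested activators and other inhibitors 6 were higher and 11 lower, and the median log2 fold change was -0.13, against 0.00 over all genes tested. The urokinase receptor Plaur, which holds a plasminogen activator at the cell surface, rose to 68.3 ± 6.07 TPM in Treg co-culture libraries, against 39.7 ± 1.57 TPM in controls (0.76), and so did the hyaluronan receptor Cd44, a docking protein for Mmp14 (0.58). The urokinase gene Plau itself, chosen after its value was seen, stood at 71.8 ± 1.42 TPM in Treg co-culture libraries and 69.3 ± 0.474 TPM in controls and was not called. Lower was Serpine2, an inhibitor of thrombin and urokinase, with 151 ± 5.30 TPM in Treg co-culture libraries and 199 ± 4.17 TPM in controls (-0.39). Also lower were the proprotein convertase Pcsk6 (61.2 ± 4.08 TPM in Treg co-culture libraries against 97.7 ± 3.02 TPM in controls, -0.67) and the cathepsin inhibitor cystatin C, Cst3 (284 ± 12.5 TPM in Treg co-culture libraries against 405 ± 9.14 TPM in controls, -0.51). Chosen after their values were seen, the membrane-bound Mmp inhibitor Reck fell to 31.2 ± 1.53 TPM in Treg co-culture libraries, against 46.7 ± 0.831 TPM in controls (-0.57), and the convertase Furin rose to 89.9 ± 3.14 TPM in Treg co-culture libraries, against 77.1 ± 6.48 TPM in controls (0.22, adjusted p = 0.0129).

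Other metalloproteinases and their helpers were higher in 6 and lower in 10 of 20 tested, with a list median of -0.10. The shares over all genes tested were 19.8% and 18.0%. The angiotensin-converting enzyme Ace had 24.7 ± 2.64 TPM in Treg co-culture libraries and 53.2 ± 1.57 TPM in controls (-1.08), and the aminopeptidase Anpep, or CD13, 38.5 ± 1.41 TPM in Treg co-culture libraries against 68.3 ± 1.34 TPM in controls (-0.81). Pcolce, which enhances removal of the carboxy-terminal procollagen propeptide, fell to 730 ± 12.5 TPM in Treg co-culture libraries, against 987 ± 23.4 TPM in controls (-0.43), and Adam23, a member with no protease activity, fell by 0.41. The membrane protease Adam19 rose to 132 ± 5.06 TPM in Treg co-culture libraries, against 110 ± 2.15 TPM in controls (0.27). Chosen after its value was seen, Bmp1, the C-proteinase that Pcolce enhances, was also higher, with 246 ± 6.52 TPM in Treg co-culture libraries against 218 ± 6.74 TPM in controls (0.18, adjusted p = 0.00180).

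Substrates of the family were lower in 15 and higher in 4 of 21 tested, with a list median of -0.19. Of all genes tested 18.0% were lower and 19.8% higher, and 27.1% and 33.1% of those with a mean of at least 100 TPM. The elastin gene Eln fell to 11.2 ± 1.51 TPM in Treg co-culture libraries, against 38.1 ± 0.695 TPM in controls (-1.69), and the small proteoglycan decorin, Dcn, to 576 ± 8.35 TPM in Treg co-culture libraries, against 1018 ± 33.5 TPM in controls (-0.82). The collagen Col3a1 had 3607 ± 36.0 TPM in Treg co-culture libraries and 5080 ± 98.7 TPM in controls (-0.49). Among the 4 was Ccn2, a matricellular protein that Mmp enzymes cut (1126 ± 5.79 TPM in Treg co-culture libraries, 623 ± 3.25 TPM in controls). Sparc had 5991 ± 43.5 TPM in Treg co-culture libraries and 7424 ± 32.7 TPM in controls (-0.31, SE 0.01, adjusted p = 4.66e-08). Chosen after its value was seen, the proteoglycan versican (Vcan) rose to 103 ± 1.45 TPM in Treg co-culture libraries, against 65.5 ± 0.675 TPM in controls (0.64, SE 0.03, adjusted p = 3.81e-07). Of the proteoglycan-cutting members tested, Adamts1, Adamts5 and Adamts15 were lower. Adamts4 (0.09) and Adamts9 (0.05), the latter also known for versican cutting, were not called. Any link between Vcan and these members was not tested. Comp, the substrate of Adamts12 and Adamts7 and likewise chosen after its value was seen, fell to 4.12 ± 0.947 TPM in Treg co-culture libraries, against 8.74 ± 0.0998 TPM in controls (-0.94, SE 0.14, adjusted p = 3.79e-04).

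Transcription factors known to act on Mmp and Timp genes were higher in 6 and lower in 7 of 23 tested, with a list median of -0.05. For all genes tested the shares were 19.8% and 18.0%. Within the AP-1 family Fos had 30.6 ± 0.433 TPM in Treg co-culture libraries and 77.1 ± 1.70 TPM in controls (-1.31, SE 0.04, adjusted p = 1.01e-08), and Fosl2 fell by 0.27, while Fosl1 rose to 20.9 ± 2.40 TPM in Treg co-culture libraries, against 10.9 ± 2.09 TPM in controls (0.88, SE 0.13, adjusted p = 4.22e-04). The immediate early factor Egr1 had 135 ± 4.66 TPM in Treg co-culture libraries and 298 ± 6.91 TPM in controls (-1.13, adjusted p = 5.90e-09). Ets1, a factor of the ETS class, rose to 36.0 ± 0.303 TPM in Treg co-culture libraries, against 26.9 TPM (25.6 to 28.5) in controls (0.41, adjusted p = 2.32e-04). The AP-1 partner Jun, chosen after its value was seen, stood at 51.8 ± 1.10 TPM in Treg co-culture libraries and 53.6 ± 3.42 TPM in controls and was not called. Among the other AP-1 genes of the list, likewise chosen after their values were seen, Junb was lower (-0.12, adjusted p = 0.0263 in limma). Fosb and Jund were not called.

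**Figure D4:**
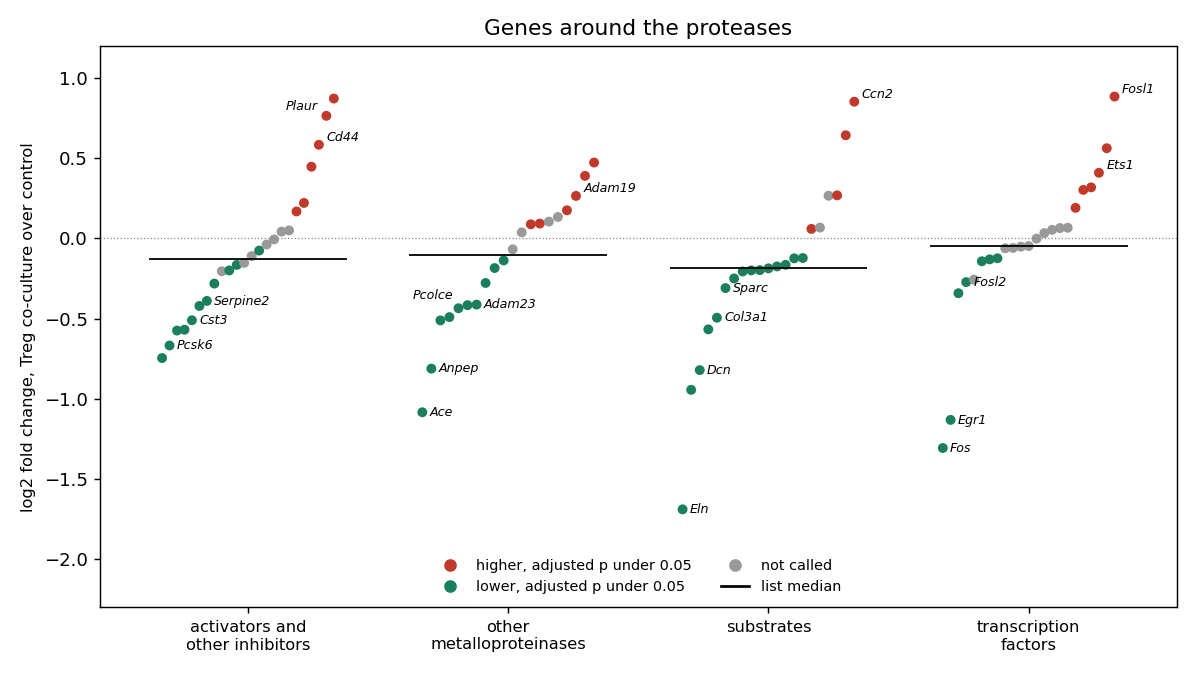
Log2 fold change on the log2(TPM + 1) scale, Treg co-culture over control, of each tested gene in the 4 related lists; points are genes sorted within a list and coloured by call, lines are list medians and the named points have the lowest adjusted p of each list. Fos (-1.31) and Egr1 (-1.13) lie far below 0, and Fosl1 (0.88), Ccn2 (0.85) and Plaur (0.76) lie above it.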

How the data were processed

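Messenger RNA of 6 libraries, 3 of Treg co-culture and 3 of control, was measured by sequencing. Trizol extraction, capture of mRNA on beads and heat fragmentation are given per the labels' protocols. The authors deposited 1 table of TPM values, 1 column per library and 1 row per NCBI Gene number, and all its columns belong to these libraries. TPM keeps no sequencing depth, so no counting interval is given. GRCm38, mm10 and GRCm39 are all listed as builds, without their use, per the submitters' processing notes, while any aligner, counter or annotation was not given in the sources used here.

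Symbols came from an NCBI RefSeq gene table (assembly GRCm38.p6), which matched 99.1% of 22186 gene numbers. No pair of libraries shared more than 60 identical values over 13935 genes, so each library was counted as 1 replicate. Limma 3.58.1 (R 4.3.3; lmFit, eBayes with a mean-variance trend) was fitted without a block to log2(TPM + 1) of genes averaging 1 TPM or more over the 6 libraries, and adjusted p-values are Benjamini-Hochberg over all genes tested. SE are limma's moderated standard errors. Python 3.11.15, pandas 2.3.3 and matplotlib 3.10.9 were used for tables and plots.

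Since the labels give libraries of 1 number the same batch, batch as a block was the paired alternative. Deviations from group means of same-numbered libraries correlated at 0.0115, -0.0146 and 0.00402 (Pearson r over genes). The members and lists were chosen with earlier results of these data known. Values by library are given for members past the threshold and for the 3 most abundant of each class, and of each related list up to 5 called genes with the lowest adjusted p are named. In the list of activators and other inhibitors 1 gene is not reported here and was left out of its counts.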

Additional observations from a re-analysis of the deposited data

How the results depend on the processing

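All 22 called members kept their direction and stayed past the threshold in each of the 15 alternatives of the limma fit that tested them: a pseudocount of 0.1 or 0.01, a 5 TPM filter or none, scaling by median of ratios, quantile normalization, eBayes without the trend or robust, the replicate block (batch), and each library left out. With the replicate block 5 members were higher and 17 lower, as without it, and it changed no member's call. Over all alternatives 4 to 7 members were higher and 16 to 18 lower, and with 1 library left out 5 were higher and 17 to 18 lower. The 4 are from the filter of 5 TPM, which removes Mmp15, and the 7 from eBayes without the trend, which calls Mmp13 and Mmp8 higher (adjusted p = 0.0283 and 0.0332). Counts in the related lists ranged from 5 to 6 higher and 10 to 12 lower for activators and other inhibitors, 4 to 6 and 7 to 10 for other metalloproteinases, 3 to 5 and 12 to 15 for substrates, and 6 and 5 to 7 for transcription factors. With the replicate block 5 other metalloproteinases were higher and 6 transcription factors lower, each 1 fewer than without it. The median log2 fold change of all genes tested was 0.0015 as deposited, -0.0023 with median-of-ratios scaling and -0.0057 with quantile normalization. Both scalings bring the libraries to a shared centre, which holds this median near 0, so it is no check of them. Class sums moved when their most abundant member was left out, except that of Adamtsl (ratio 0.759 without Adamtsl1 and 0.757 with it). The ratio of Treg co-culture over control was then 0.714 for Adamts (without Adamts5), 0.832 for secreted Mmp (without Mmp2), 0.757 for membrane-anchored Mmp and 0.737 for all Mmp (without Mmp14; 0.820 with it) and 1.06 for Timp (without Timp3). TPM hides depth, and 13 of the 35 members tested were not called, 9 of them under 10 TPM, which does not show that they were equal.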
